A study of Sus scrofa with 6 samples.

Results

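Histone methylation is set by methyltransferases, here called writers, and removed by demethylases, here called erasers. The 54 genes described here were the rows of the deposited abundance table whose gene name began with a symbol of these families, among 17678 rows in all. They comprised 38 writers, of which 9 were arginine methyltransferases, and 16 erasers. Some of the writers have substrates other than histones, and they were kept because the choice was made by name. Enzyme activity was not measured for any of the genes, so that a class or a mark given for a gene is a listing only. Genes were tested if their abundance averaged 10 or more across the 6 libraries, which held for 52 of the 54 genes (36 writers and 16 erasers). SETD9 and PRMT8 fell short. The names KMT2D, SETMAR, SMYD1, KDM4D and KDM5D were not matched by any row, and 3575 rows carried no name.

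The embryos were porcine 2-cell parthenotes, harvested 32 h after activation as pools of 20 embryos per replicate. Matured (MII) oocytes from slaughterhouse ovaries of crossbred (Landrace × Yorkshire × Duroc) pigs were injected with nonspecific siRNA (NC, 3 replicates) or with siRNAs against SIN3A (KD, 3 replicates) and were then activated without sperm, so that both groups carried maternal genomes alone. SIN3A is the scaffold of the SIN3/HDAC repressor complex, and the comparison asked which transcripts its depletion altered before embryonic genome activation. Because the stage precedes that activation in pigs, most of the messenger RNA was inherited from the oocyte, and a transcript level at this stage need not follow that of the protein.

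Writers place 1 or more methyl groups on lysine or arginine residues of histone tails, most of them through a SET domain and the arginine enzymes through a different fold. Methylation of H3K4 and H3K36 marks transcribed genes, that of H3K9, H3K27 and H4K20 marks silent chromatin, and DOT1L methylates H3K79 in the globular core. Erasers are of either the KDM1 type, which are flavin-dependent amine oxidases, or the Jumonji type, which use iron and 2-oxoglutarate. In mammalian oocytes the writers SETDB1 and EHMT2 and the eraser KDM1B are known maternal factors, and KDM1B is required for maternal DNA methylation imprints in mice.

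The 6 libraries resembled each other closely, with Spearman correlations across all rows of 0.982 to 0.987. SIN3A itself, in replicates 1 to 3, had normalized abundances of 37361, 33964 and 32404 in NC and of 3271, 1079 and 4173 in KD, which was 8.22% of the NC mean. Of 11986 genes tested, 19 passed an adjusted p below 0.05 (0.159%), and between 11 and 12 did so when KD replicate 1, KD replicate 2, NC replicate 2 or NC replicate 3 was left out. CCNB1, which encodes cyclin B1, was among the 19, with 20.5% of its NC mean remaining in KD. Without the variance trend in limma 0 genes were called and 622 had an unadjusted p below 0.05, and SIN3A and CCNB1 also missed the threshold there and with robust empirical Bayes. Of 15 oocyte markers, 13 were found and none was at 0 in any library, and their summed abundance ran from 94117 to 103922 in NC and from 90710 to 113276 in KD. Of 15 cumulus and granulosa cell markers, 11 were found. Their sum was 792 to 954 in NC and 755 to 890 in KD, nearly all of it VCAN (735 to 925). In replicates 1 to 3, 1, 2 and 3 of the 11 were at 0 in NC and 5, 4 and 5 in KD. PTX3 and PTGS2 were at 0 in every KD library and in no NC library, while CYP19A1 and FOXL2 had higher means in KD, all with group means under 10. Abundances were relative to the other transcripts of a library, so that a loss of all transcripts alike, or fewer embryos in a pool, would not be seen.

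Stored maternal messages carry signals near their 3′ ends that govern the length of the poly(A) tail, and the libraries were made from poly(A) RNA. The letters TTTTAT or TTTTAAT, which are the core of the cytoplasmic polyadenylation element, and the polyadenylation hexamer AATAAA were therefore searched on the mRNA strand alone, in the longest RefSeq mRNA of each gene. Windows of 30 bases are shown for 4 abundant enzymes that held TTTTAT, 5′ to 3′ on the mRNA strand, from the Sscrofa11.1 assembly, with TTTTAT in capitals. All of them lie at the end of the 3′ UTR in the last exon.
PRMT1: cataacttatgtTTTTATatggttgcattt
SETD1A: ccaacgccacatTTTTATaattgtgattaa
SETD1B: tattatagtaacTTTTATaaagcaaaccat
KDM1A: gtgtggtggtttTTTTATattttgagaata
The windows were chr6:54730358-54730387 (plus strand) for PRMT1, chr3:17463784-17463813 (minus) for SETD1A, chr14:30862177-30862206 (minus) for SETD1B and chr6:80971828-80971857 (plus) for KDM1A. SUV39H2, one of the abundant H3K9 writers, held no TTTTAT or TTTTAAT in its last 150 bases but did hold AATAAA, in capitals below, at chr10:46874611-46874640 on the minus strand.
SUV39H2: tctctttagcaaAATAAAtttagtttggca

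TTTTAT or TTTTAAT was found in the last 150 bases of 17 of the 52 tested genes (32.7%), against 25.7% of 9762 tested genes with a RefSeq mRNA. AATAAA was found in the last 50 bases of 25 of the 52 (48.1%), against 59.4%. The motifs share letters where TTTTAAT runs into AATAAA, as in KMT5B and PRMT2, and such a stretch was counted for both. Writers and erasers held TTTTAT or TTTTAAT in similar shares, 33.3% of 36 and 31.3% of 16. KDM1B, KDM6B and KDM3A, among the 5 most abundant erasers, held neither motif in these windows. A match is a string of letters in an annotated end and was not shown to be a working element here.

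To compare levels between genes, each abundance was divided by the length of the gene's longest RefSeq mRNA in kilobases. Writers were the more abundant class on this scale, and 10 of them stood above every eraser. This order depended on the division by length. Without it, only the writers KMT2C, SETD1A, NSD2 and KMT2E had NC means above that of the highest eraser, KDM5A (4481), and PRMT1 was below it (3692). PRMT1, the main enzyme for asymmetric dimethylation of arginine and a writer of H4R3 methylation, was the highest of all 54 genes. Its abundance was 3299, 4037 and 3742 in the NC replicates and 4392, 4080 and 3313 in the KD replicates, and the groups overlapped. Its NC level was 2234 ± 225 per kb (SD, n = 3), higher than that of 98.5% of the tested genes with a RefSeq length.

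After PRMT1 came a group of 7 writers between 739 and 919 per kb, in which each gene overlapped with the next in the order over the NC replicates, except EHMT2 with SETDB1. SETD1A, a catalytic subunit of the main H3K4 trimethylation complexes, was at 919 ± 118 per kb. EHMT2, also called G9a, which dimethylates H3K9, was at 893 ± 22.3. SETDB1, which trimethylates H3K9 at retroelements, was at 837 ± 3.91. KMT2C, an H3K4 writer at enhancers, was at 833 ± 34.9, NSD2, which dimethylates H3K36, at 817 ± 43.1, and KMT5C, which trimethylates H4K20, at 810 ± 115. SUV39H2, which trimethylates H3K9 at pericentric heterochromatin, was at 739 ± 60.8. With the median length of a gene's mRNAs in place of the longest, SUV39H2 came second of the 54 genes, at 1085 per kb, and PRMT1 stayed first.

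Erasers began lower. KDM1A, also called LSD1, which demethylates H3K4, had 497 ± 64.4 per kb, and its relative KDM1B, also called LSD2, had 473 ± 19.2. KDM5A, an H3K4 trimethyl eraser that is also known to work with SIN3 complexes, had 461 ± 31.0 per kb, and these 3 levels did not differ beyond their spread. KDM6B, an H3K27 eraser, followed at 353 ± 49.1 and KDM3A, an H3K9 eraser, at 301 ± 29.5. The remaining 11 erasers lay between 2.68 and 169.5 per kb. At the lower end of the tested genes stood KDM5B at 2.68, SMYD4 at 3.72, SETD4 at 5.93 and SETD2, which trimethylates H3K36 in transcribed genes, at 6.82 per kb.

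SETD9 had abundances of 4.58, 3.20 and 2.20 in NC and of 3.70, 3.65 and 0 in KD. PRMT8, an arginine writer known from neurons, had 2.75, 1.51 and 2.65 in NC and 0, 3.71 and 2.27 in KD. Both groups overlapped for both genes, and no fold change is given at these values.

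**Figure D1:**
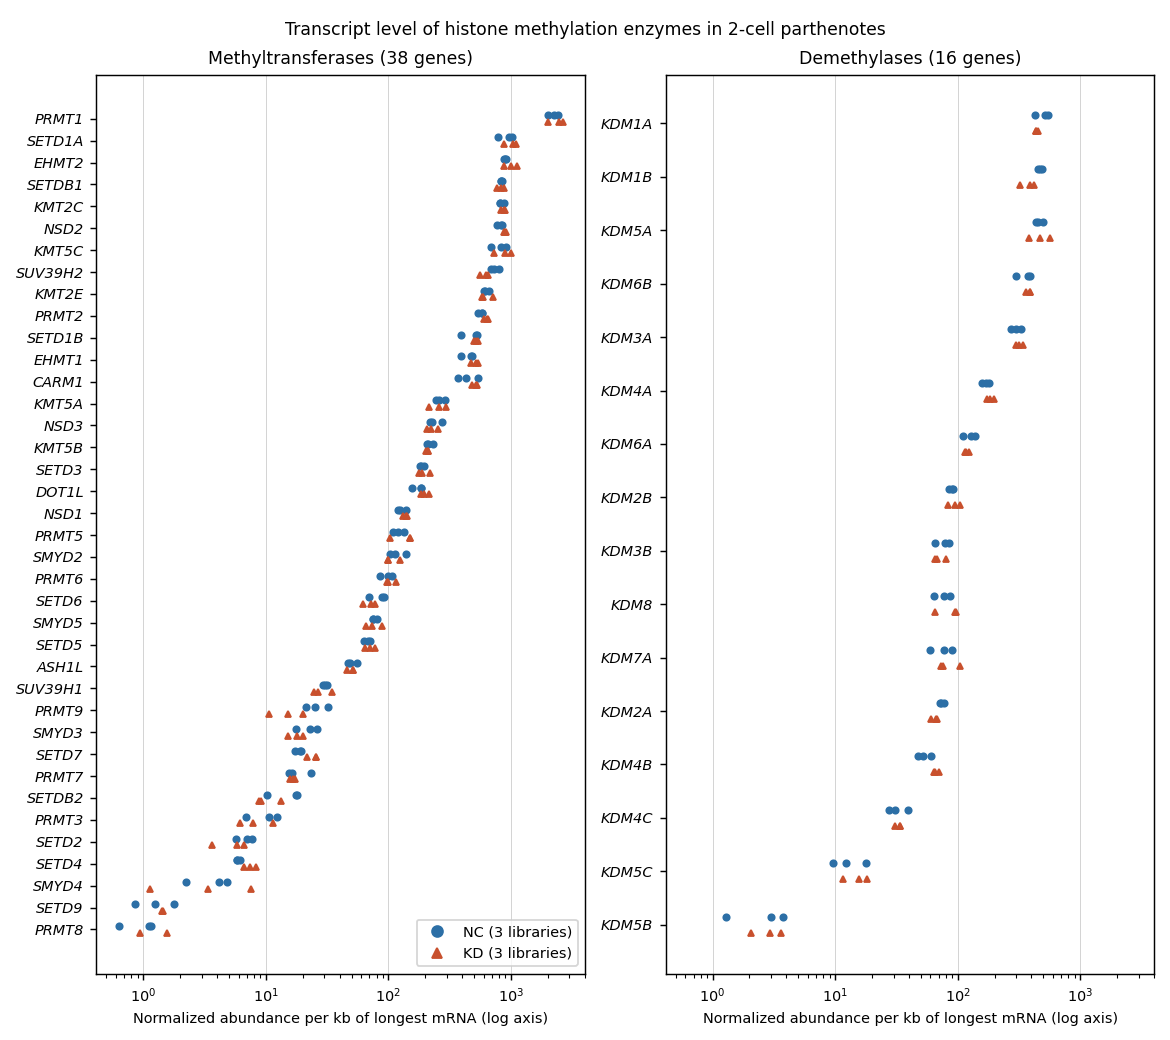
Normalized abundance per kb of the longest RefSeq mRNA (horizontal log axis) for the 38 writers (left) and the 16 erasers (right), 1 circle for each of the 3 NC libraries and 1 triangle for each of the 3 KD libraries. PRMT1 leads at 2234 per kb in NC, the erasers begin at 497 per kb, and in most genes the circles and triangles overlap. The KD libraries in which SETD9 or PRMT8 had a value of 0 are not drawn on the log axis.

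Within most families of related enzymes, 1 paralog supplied most of the transcript. KDM5A made up 96.7% ± 0.780 (SD, n = 3) of the KDM5 level per kb in NC, KDM5C 2.74% and KDM5B 0.557%. Among H3K9 writers, SUV39H2 made up 96.0% ± 0.405 of the SUV39H pair and SETDB1 98.2% ± 0.507 of the SETDB pair. EHMT2 had 66.6% of the EHMT pair. SETD1A had 65.9% of the SETD1 pair, NSD2 69.1% of the NSD genes and KMT5C 62.6% of the KMT5 genes. Of the 9 arginine writers, PRMT1 had 63.3%, PRMT2 16.2% and CARM1, an H3R17 writer and coactivator, 12.7%.

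KDM1A and KDM1B shared their family at 51.1% and 48.9% ± 4.32, and KDM2B and KDM2A, H3K36 erasers, at 54.4% and 45.6%. These 2 eraser pairs were nearly even. KDM3A had 79.7% of its pair, KDM6B 73.6% of its pair and KDM4A 66.2% of the KDM4 genes. By group means, none of these leading paralogs changed place in KD, although KDM1B led its pair in NC replicate 3 (53.7%). The leading shares were 96.2% for KDM5A, 95.5% for SUV39H2, 98.8% for SETDB1, 66.1% for EHMT2, 66.0% for SETD1A, 71.2% for NSD2, 65.2% for KMT5C, 62.4% for PRMT1, 54.1% for KDM1A, 59.3% for KDM2B, 81.8% for KDM3A, 76.4% for KDM6B and 65.0% for KDM4A. The share of KDM2B, at 55.9%, 52.3% and 54.9% in NC and 55.7%, 60.9% and 61.2% in KD, overlapped between the groups.

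**Figure D2:**
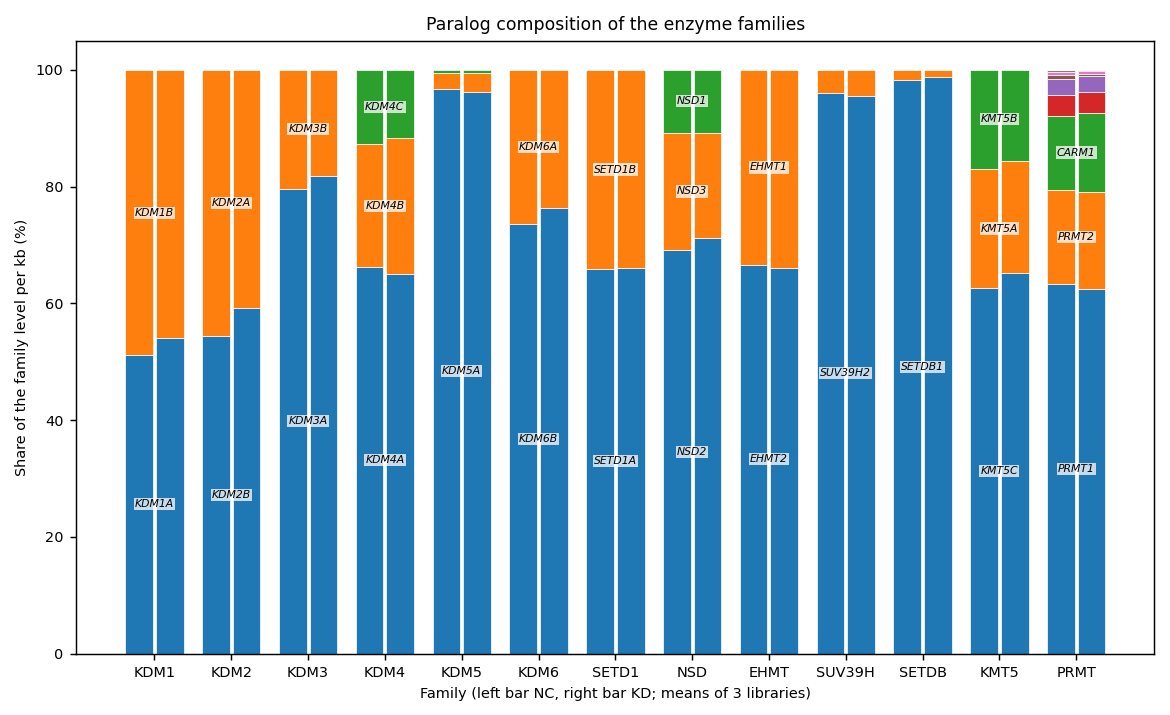
Share of each paralog in the summed level per kb of its family (vertical axis, percent), with the NC bar on the left and the KD bar on the right of each pair, both means of 3 libraries. KDM5A, SUV39H2 and SETDB1 fill over 95% of their families in both groups, and the KDM1 pair is nearly even. The unlabelled segments are KDM5C and KDM5B from below in KDM5, SUV39H1, SETDB2, and the PRMT genes under 4%.

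Summed over each class, the 38 writers reached 12639 ± 582 per kb in NC and 13235 ± 565 in KD (SD, n = 3). The 16 erasers reached 2873 ± 29.9 in NC and 2816 ± 67.1 in KD. The classes differ in size, and the NC median per tested gene was 151 per kb for writers and 82.4 for erasers. KMT2A and KMT2B, in rows without a name, and enzymes outside the name pattern such as PHF8 were not in these sums. The eraser share of the sum was 19.5%, 18.1% and 18.1% in the NC replicates and 17.1%, 17.0% and 18.6% in the KD replicates. The means were 18.5% ± 0.792 and 17.6% ± 0.905, and the groups overlapped. The 3 highest writers held 32.0% of the writer level in NC and the 3 highest erasers 49.8% of the eraser level. The 54 genes together were 0.790% of the summed abundance of a library in NC and 0.814% in KD.

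Of the 52 tested genes, 0 passed an adjusted p below 0.05 (limma on log2(value + 1), Benjamini-Hochberg over 11986 genes), where 0.159% of all tested genes did. At an unadjusted p below 0.05 there were 5 (9.62%), against 4.61% of all tested genes, and the count was 3 when KD replicate 1 was left out and 7 when KD replicate 3 was. They were KDM1B, SUV39H2 and PRMT9 on the lower side in KD (3 of 52 against 2.38%), and KDM4B and SETD7 on the higher side (2 of 52 against 2.24%). The 3 KD values lay wholly above or below the 3 NC values in 10 of the 52 genes (19.2%), against 9.79% of all tested genes. In 6 of them KD lay above NC, against 4.85% of all genes, and these were NSD2, PRMT2, DOT1L, KDM4B, SETD7 and SETD4. In 4 KD lay below NC, against 4.94%, and these were SUV39H2, KDM1B, KDM2A and PRMT9.

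The fold changes of both classes were centred near 0. The median log2 fold change was 0.025 over 36 writers, with 18 above 0, and 0.094 over 16 erasers, with 11 above 0. Over all tested genes the median was 0.0026 and 50.6% were above 0. The eraser median was 0.060 without NC replicate 1, 0.033 without NC replicate 2, 0.040 without NC replicate 3, 0.030 without KD replicate 1 and 0.039 without KD replicate 2. Leaving out KD replicate 3 did not lower the eraser median. The writer median was 0.0071 without NC replicate 1, 0.013 without NC replicate 2, 0.040 without NC replicate 3, 0.017 without KD replicate 1, 0.045 without KD replicate 2, 0.051 without KD replicate 3 and -0.0083 with no filter on low values. The order of the classes was not stable, since with a mean of at least 100 the writer median was 0.074 and the eraser median 0.063. For 40 of the 52 genes the 95% interval of the fold change lay within 1.5-fold in either direction, and for 47 within 2-fold. The 5 genes with wider intervals were PRMT9, SETDB2, SETD4, SMYD4 and KDM5B, all with NC means under 100.

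**Figure D3:**
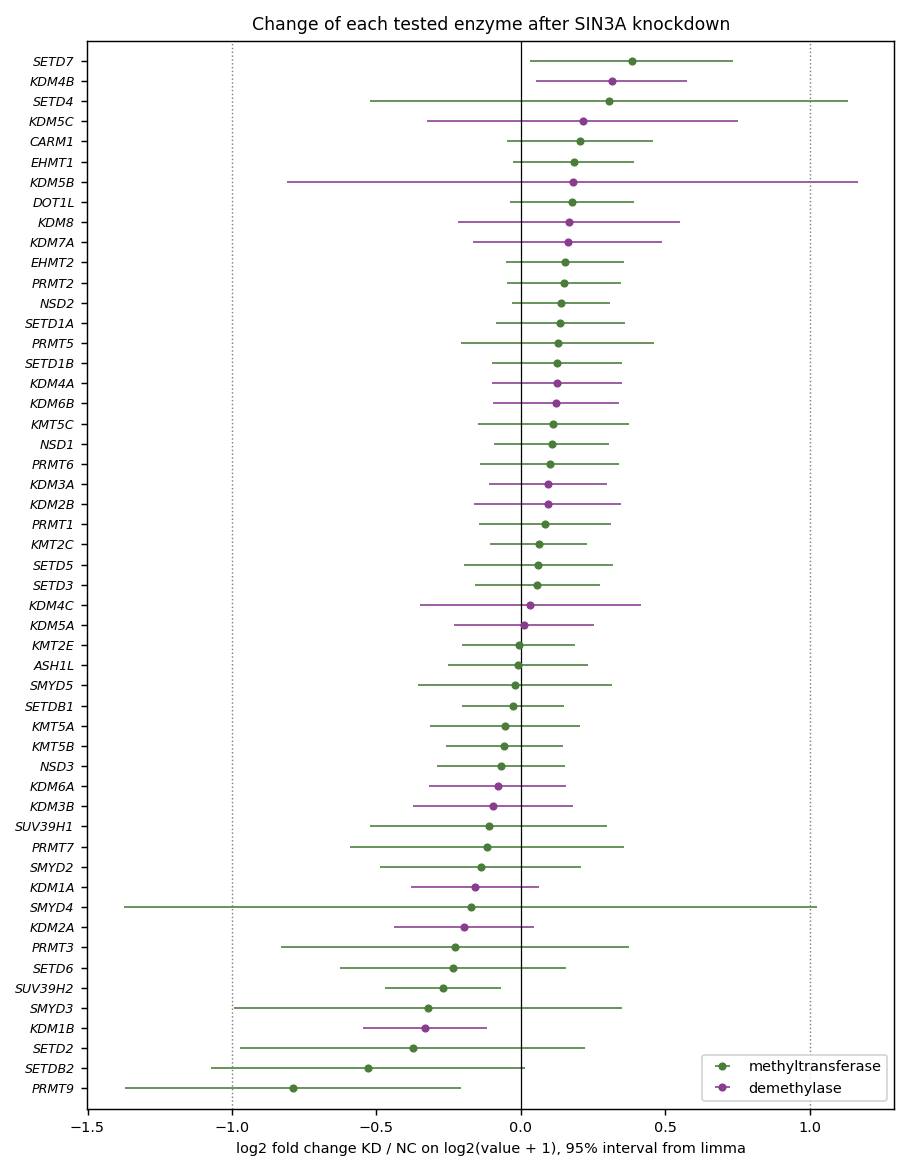
log2 fold change of KD against NC (horizontal axis) with its 95% interval from limma for each of the 52 tested genes, writers in green and erasers in purple, and dotted lines at a 2-fold change. The estimates run from -0.79 in PRMT9 to 0.38 in SETD7, and 5 intervals leave out 0.

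Among the erasers, the 2 KDM1 genes had the lowest estimates together with KDM2A. KDM1B (chr7:13846283-13902912, plus strand, Sscrofa11.1) had abundances of 2917, 2800 and 3036 in the NC replicates and of 2408, 1988 and 2599 in the KD replicates. Every KD library was below every NC library. Its log2 fold change was -0.33 (SE 0.10, 95% interval -0.55 to -0.12), with an adjusted p of 0.632 (limma, Benjamini-Hochberg) that ranged from 0.234 to 0.99998 over the alternatives. KDM1A had 1609, 1696 and 1315 in NC and 1397, 1362 and 1360 in KD, which overlapped, with a log2 fold change of -0.16 (SE 0.11). KDM2A, an H3K36 eraser, had 529, 564 and 538 in NC and 488, 495 and 439.8 in KD. Its KD values were all lower, with a log2 fold change of -0.20 (SE 0.11).

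KDM4B, which demethylates trimethylated H3K9, was the eraser with the highest estimate. Its abundances were 408, 528 and 454 in NC and 550, 566 and 605 in KD, with every KD library above NC. The log2 fold change was 0.31 (SE 0.12, 95% interval 0.053 to 0.58), and the adjusted p was 0.997 (limma, Benjamini-Hochberg).

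The 3 KDM5 genes remove H3K4 methylation and none of them differed beyond the spread. KDM5A had 4392, 4235 and 4816 in NC and 4537, 3698 and 5462 in KD. Its KD values lay on both sides of NC, and the log2 fold change was 0.011 (95% interval -0.23 to 0.25). KDM5C had 73.6, 57.6 and 109 in NC and 93.7, 111 and 69.8 in KD, with a log2 fold change of 0.21 (SE 0.25) that ran from 0.0059 to 0.46 when 1 library was left out. KDM5B had 8.26, 19.1 and 23.8 in NC and 23.1, 13.2 and 18.6 in KD, a level at which the interval ran from -0.81 to 1.17. The H3K27 eraser KDM6B had 2240, 2815 and 2931 in NC and 2730, 2951 and 2962 in KD (log2 fold change 0.12, SE 0.10). The H3K9 eraser KDM3A had 2315, 2077 and 1905 in NC and 2380, 2231 and 2098 in KD (0.094, SE 0.097). In both the groups overlapped. The other 7 erasers had log2 fold changes from -0.096 to 0.17, and all 7 overlapped between groups.

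Of the 6 H3K9 writers, 4 had estimates below 0 and 2 above, with a median of -0.070. SUV39H2 (chr10:46874606-46900058, minus strand) had 3073, 2807 and 2610 in NC and 2151, 2386 and 2505 in KD. Every KD library was lower, the log2 fold change was -0.27 (SE 0.095, 95% interval -0.47 to -0.069), and the adjusted p was 0.873 (limma, Benjamini-Hochberg). SETDB2, a weakly expressed relative of SETDB1, had 114, 66.7 and 117 in NC and 57.1, 86.6 and 59.1 in KD. NC replicate 2 fell within the KD range, and the log2 fold change was -0.53 (SE 0.26). SETDB1 had 4434, 4476 and 4455 in NC, the tightest NC values of all 54 genes, and 4078, 4418 and 4630 in KD. Its log2 fold change was -0.028, and its interval of -0.20 to 0.15 lay within 1.5-fold. The partners EHMT1 and EHMT2, which work as a dimer, were on the other side. EHMT2 had 3371, 3542 and 3439 in NC and 4341, 3868 and 3364 in KD (log2 fold change 0.15, SE 0.096), and EHMT1 had 1948, 2394 and 2333 in NC and 2667, 2559 and 2331 in KD (0.18, SE 0.0995). Both overlapped between groups.

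**Figure D4:**
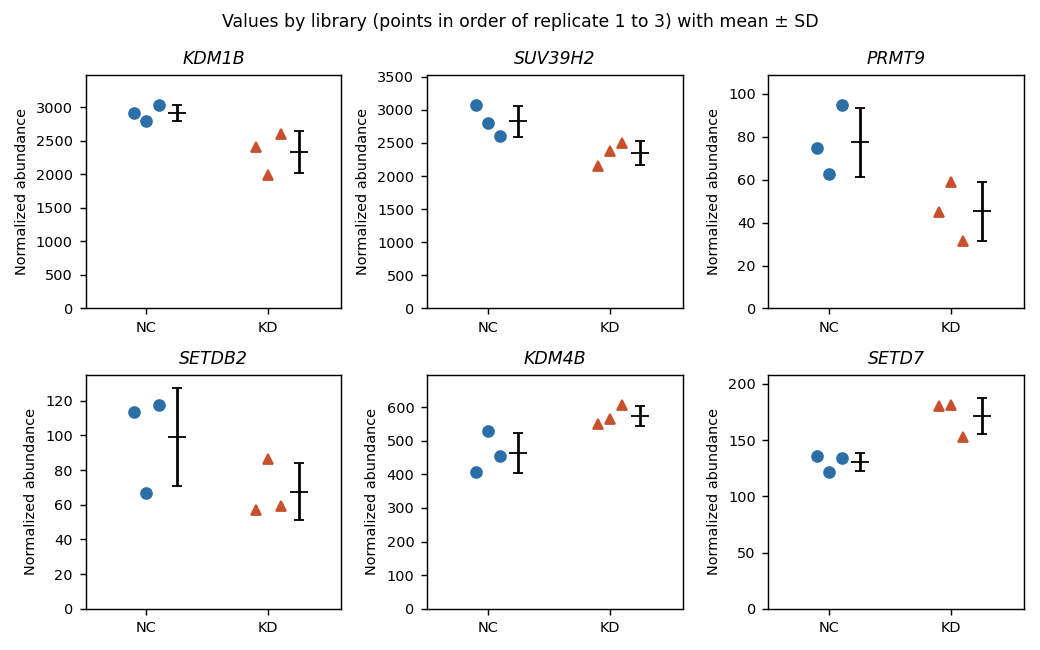
Normalized abundance (vertical axes, from 0) of the 6 genes with the smallest unadjusted p, 1 point per library in the order of replicates 1 to 3, with the mean ± SD of each group. KD lies below NC in all libraries for KDM1B, SUV39H2 and PRMT9 and above it for KDM4B and SETD7, while SETDB2 overlaps.

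Among the 7 genes found by name and listed as H3K4 writers, KMT2E included, the median log2 fold change was 0.063. SETD7, which monomethylates H3K4 and many other proteins, had 136, 122 and 134 in NC and 180, 181 and 153 in KD. All KD values were higher, with a log2 fold change of 0.38 (SE 0.17, 95% interval 0.033 to 0.74) and an adjusted p of 0.997 (limma, Benjamini-Hochberg). SETD1A had 6473, 8352 and 7864 in NC and 8579, 9091 and 7240 in KD (0.14, SE 0.11), and its groups overlapped. KMT2C, the highest of the 54 genes before division by length, had 14873, 13853 and 13833 in NC and 14192, 14916 and 15341 in KD (0.063, SE 0.079). The other 4 ran from -0.32 in SMYD3 to 0.13 in SETD1B. Another 2 H3K4 writers sat in rows without a name and were identified through a table of gene identifiers after their values were seen. KMT2B, the main writer of H3K4 trimethylation in mouse oocytes, had 7110, 9361 and 8968 in NC and 9511, 9962 and 8616 in KD. At 1003 ± 142 per kb in NC it was exceeded by PRMT1 alone among the 54 genes, and its log2 fold change was 0.15 (95% interval -0.065 to 0.37). KMT2A had 154 per kb and a log2 fold change of 0.045.

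Of the 5 H3K36 writers, NSD2 had 5693, 6172 and 6300 in NC and 6793, 6559 and 6648 in KD. Its KD values were all higher by a narrow margin, with a log2 fold change of 0.14 (SE 0.081). SETD2 had the lowest estimate of the 5, at -0.37 (SE 0.28), with overlapping groups, and the median of the 5 was -0.0089. DOT1L, the H3K79 writer, had 1213, 1439 and 1419 in NC and 1441, 1649 and 1512 in KD (0.18, SE 0.10). The lowest KD library was only just above the highest NC library. KMT5C, an H4K20 writer, had 1663, 2214 and 2007 in NC and 2426, 2186 and 1765 in KD (0.11, SE 0.12), and KMT5A and KMT5B had -0.054 and -0.057.

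Of the 8 tested arginine writers, 5 had estimates above 0, with a median of 0.092. PRMT9 (chr8:81076709-81113545, plus strand), which methylates the splicing factor SF3B2, had the lowest estimate of all 52 genes. Its abundances were 74.8, 62.8 and 94.7 in NC and 45.04, 58.95 and 31.57 in KD, and the log2 fold change was -0.79 (SE 0.28, 95% interval -1.37 to -0.21). KD replicate 2 was close to NC replicate 2, and the adjusted p was 0.852 (limma, Benjamini-Hochberg). PRMT1 had a log2 fold change of 0.084 (95% interval -0.14 to 0.31). CARM1 was at 0.21 (SE 0.12) and PRMT5, the main enzyme for symmetric dimethylation, at 0.13 (SE 0.16), and both overlapped. The 6 tested SET and MYND proteins with other or unsettled substrates ran from -0.23 in SETD6 to 0.31 in SETD4. With 3 libraries per group the exact permutation test cannot give a p below 0.1. Non-overlapping groups always give this value, so that for the 10 genes with such groups it adds nothing to the lack of overlap.

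The estimates varied with the base composition of the mRNA. Across the 52 genes the Spearman correlation of the log2 fold change with GC content was 0.483, and across 9763 tested genes it was 0.211. These points share the same 6 libraries. Of 19 tested genes with at least 55% GC, 16 had estimates above 0, with a median of 0.14, against 63.1% of all tested genes in that range. Of 11 genes below 45% GC, 3 had estimates above 0, with a median of -0.079, against 39.4%. These limits were chosen after the values were seen. KDM1B (40.9% GC), SUV39H2 (37.5%) and SETDB2 (38.5%) were among the latter, and KDM4B (58.6%), DOT1L (62.2%) and NSD2 (63.1%) among the former. PRMT9 (45.5%) and SETD7 (46.6%) lay in neither range. KDM7A, PRMT6 and KDM3A were below 45% GC with estimates above 0. SUV39H1, PRMT7 and SMYD5 were above 55% GC with estimates below 0.

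NC replicate 1 differed from the other NC libraries along the same axis. Its log2 value minus the mean of NC replicates 2 and 3 had a Spearman correlation with GC content of -0.510 across the 52 genes and of -0.437 across all. The KD change uses the same library with the opposite sign, so that the 2 correlations are not independent. Without this library, the correlation of the KD change with GC content was 0.290 across the 52 genes and -0.047 across all 9727 genes, and 15 of the 19 GC-rich genes had estimates above 0, with a median of 0.090, against 48.4% of all. Of the 11 genes below 45% GC, 5 then had estimates above 0, with a median of -0.0058, against 53.8% of all. With a correction for GC content, which was added after seeing the data, KDM1B had a log2 fold change of -0.29, SUV39H2 -0.21, PRMT9 -0.76, KDM4B 0.28 and SETD7 0.41. With this correction the correlation of the KD change with GC content was 0.278 across the 52 genes and 0.0069 across 9763 genes. Of the 19 GC-rich genes, 16 then had estimates above 0, with a median of 0.088, against 53.0% of all. Of the 11 genes below 45% GC, 5 did, with a median of -0.052, against 51.6% of all. The part of base composition in the remaining differences was not tested.

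**Figure D5:**
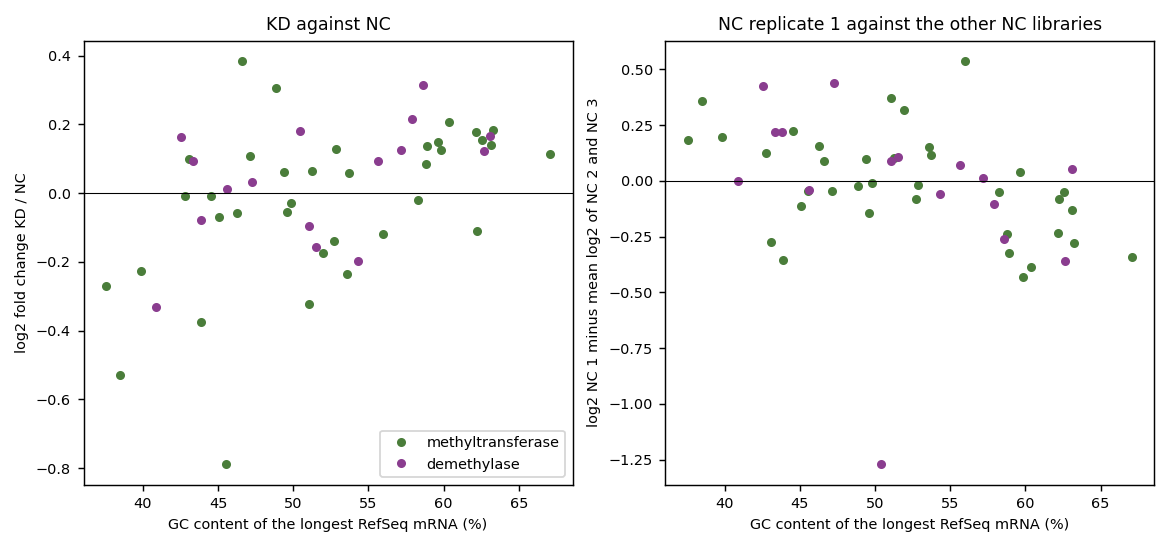
GC content of the longest RefSeq mRNA (horizontal axis, percent) of the 52 tested genes against the log2 fold change of KD to NC (left) and against the log2 value of NC replicate 1 minus the mean of NC replicates 2 and 3 (right), writers in green and erasers in purple. The left panel has a Spearman correlation of 0.483 and the right panel one of -0.510, so that the panels slope in opposite directions. Both vertical axes use the values of NC replicate 1, with opposite signs, so that the panels are not independent.

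The proteins that work with these enzymes were examined from a list of 26 partners, of which 23 were tested. Of these 23, 9 had estimates above 0 and 14 below, the median log2 fold change was -0.030, and 0 passed an adjusted p below 0.05 (limma, Benjamini-Hochberg), with 3 at an unadjusted p below 0.05, where 4.61% of all tested genes were. WDR77, the obligate cofactor of PRMT5, had 94.4, 113 and 111 in NC and 53.7, 56.0 and 82.1 in KD. All KD values were lower, which held for 4.94% of all tested genes, the log2 fold change was -0.74 (SE 0.23), and the adjusted p was 0.627 (limma, Benjamini-Hochberg). RBBP5, a core subunit of the SETD1 and KMT2 complexes, had 4298, 3637 and 3670 in NC and 3440, 3096 and 3502 in KD (-0.21, SE 0.093). Its KD values were lower in every library. RCOR1, the CoREST scaffold that binds KDM1A, was the third at this threshold, with a log2 fold change of 0.18 (SE 0.083). All its KD values were higher, which held for 4.85% of all tested genes. HCFC2, which was not at this threshold, also had all KD values lower (-0.17, SE 0.10).

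Enzymes of histone methylation outside the name pattern numbered 12 of 16 found and 9 tested. None of the 9 passed the adjusted or the unadjusted threshold in limma, and the median was -0.060. RIOX2, a Jumonji protein, had 156, 191 and 159 in NC and 134, 114 and 146 in KD (log2 fold change -0.36, SE 0.17), with every KD library lower. NTMT1, an N-terminal methyltransferase, had 24.3, 26.7 and 47.9 in NC and 47.0, 37.5 and 40.8 in KD (0.39, SE 0.32), which overlapped. EZH2, the H3K27 writer of Polycomb complex 2, was at 212 per kb and had a log2 fold change of -0.091 (SE 0.13). Of 14 genes that supply or recycle the methyl donor S-adenosylmethionine, 10 were tested and none passed either threshold in limma, with a median of -0.017. The smallest p were those of MTRR, which reactivates methionine synthase, and SHMT1, a serine hydroxymethyltransferase of the folate cycle. MTRR had 258, 179 and 193 in NC and 171, 200.2 and 155 in KD (-0.25, SE 0.17). SHMT1 had 514, 607 and 656 in NC and 632, 643 and 673 in KD (0.14, SE 0.12), and both overlapped. MAT2A, which makes the donor, had 946 per kb and MAT1A, its liver form, was at or near 0.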

How the data were processed

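Poly(A) RNA of 3 NC and 3 KD pools of 20 porcine 2-cell parthenotes was sequenced. The authors assigned reads to Sscrofa11.1 transcripts with Salmon (0.14.1 per the submitters' processing notes) and compared the groups with DESeq2. The deposited file holds a normalized signal (abundance) for each Ensembl gene, with equal median ratios between libraries. Whole reads could not be recovered from the low values, so that depth was unknown, no count test was run, and values were treated as signal. Groups and replicate numbers come from the sample titles. Replicates are independent pools of embryos in the description of the study, whether from separate ovary collections is not given in the sources used here, and p-values measure the spread between these samples. The spike-in RNA named in the labels was not used here.

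Genes that averaged 10 or more were fitted on log2(value + 1) by limma (version 3.58.1, R 4.3.3) with a variance trend and Benjamini-Hochberg adjustment over 11986 genes. A pseudocount of 1 understates the change of low genes. The threshold was an adjusted p of 0.05, also with an absolute log2 fold change above 0.8. Single values were compared by exact two-sided permutation. The fit was tested on simulated data in which genes varied independently. That test does not cover shifts shared by many genes, such as that of NC replicate 1 with GC content. Lengths, GC content, coordinates and 3′ ends come from RefSeq for Sscrofa11.1, which matched all 54 genes and 9763 of the tested genes by symbol. Tables were handled with Python 3.11.15, pandas 2.3.3, numpy 2.4.6, scipy 1.17.1 and pysam 0.24.0, and drawn with matplotlib 3.10.9.

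The members and lists were chosen with earlier results of these data known. Values are given in full for SIN3A, for the 10 members with the smallest unadjusted p, the 8 writers and 5 erasers highest per kb, all KDM1 and KDM5 genes, members below the filter, and the 2 genes of smallest p in each further list. This made 22 tested members, and other genes named by value were chosen after their values were seen. Alternative settings comprised a pseudocount of 0.1 or 10, omission of the filter or its increase to 100, quantile or TMM-like scaling, robust or untrended variances, a replicate block, omission of each library in turn, other length scalings, and a GC correction (a spline with 4 degrees of freedom) added after seeing the data.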

Additional observations from a re-analysis of the deposited data

How the results depend on the processing

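None of the 52 tested members passed an adjusted p below 0.05 in limma in the main analysis or in 16 alternatives, and the lowest adjusted p of a named member was 0.234. Over 22 named members and 348 comparisons, 340 kept direction and side of the threshold and 8, in 5 genes, reversed. KDM5A was -0.0026 with quantile normalization. Leaving out 1 library each gave log2 fold changes of -0.13 to 0.15 for KDM5A, -0.24 to 0.47 for KDM5B, -0.00076 to 0.24 for KMT5C, -0.0012 to 0.20 for PRMT1 and -0.070 to 0.022 for SETDB1. KDM5C, KDM6B and SETD1A kept their direction but ran from 0.0059 to 0.46, 0.0035 to 0.20 and 0.028 to 0.23. It gave 11 to 19 genes called over all genes, 3 to 7 members at an unadjusted p below 0.05, and eraser medians of 0.030 to 0.095. Genes called were 0 without a variance trend, where 622 had an unadjusted p below 0.05, and 31 with the GC correction. Genes at an unadjusted p below 0.05 were 350 with a mean of at least 100, where fewer genes were tested. SIN3A and CCNB1 kept log2 fold changes of -3.81 and -2.37 but had adjusted p of 0.423 each without a variance trend and of 0.469 and 0.439 with robust empirical Bayes, and the cause was not tested. The eraser share was 20.7% in NC and 19.8% in KD with no length scaling, and 21.7% and 20.6% without PRMT1. With the replicate block, 26 genes and 0 members were called, and 6 members had an unadjusted p below 0.05. Same-numbered libraries correlated at 0.109, 0.111 and 0.0872 after subtraction of group means and other pairs at -0.083 to -0.022, so that each library correlated best with its own number, which is a hint from the data and not from the design. Depth was unknown, and intervals were widest for members with values under 100.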
